A study of Mus musculus with 8 samples.

Results

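The circadian clock genes described here are *Arntl*, *Clock*, *Per1*, *Per2*, *Per3*, *Cry1*, *Nr1d1*, *Nr1d2*, *Dbp* and *Bhlhe40*, which were chosen by gene symbol as 10 of the 55401 genes in a table of whole tibialis anterior (TA) muscle. All 10 had a mean of 10 or more normalized counts over the 8 muscles, the minimum for a test, and were tested among 13677 genes. The table holds bulk RNA-seq of 4 wild-type (WT) and 4 mdx5cv muscles, and a normalized count is the number of reads of a gene divided by a size factor for that muscle. WT mice were C57/Bl6. The mdx5cv mice, a model of Duchenne muscular dystrophy with a mutation in *Dmd*, were of the same B6 background, and all were 6-mo-old males with no treatment named in the labels. Time of day of collection, light cycle and feeding are not given in the sources used here, so the muscles cannot be placed on a circadian phase. The labels number the muscles within a genotype and do not tie a number to an animal. The p-values therefore set a difference only against the spread between these samples. In whole muscle, fewer cells of a type and less RNA per cell cannot be told apart.

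The circadian clock of mammalian cells is a feedback loop of transcription. BMAL1, the protein of *Arntl*, pairs with CLOCK and binds E-box sequences to activate the period and cryptochrome genes, whose proteins then repress BMAL1 and CLOCK. REV-ERB alpha and beta, from *Nr1d1* and *Nr1d2*, repress *Arntl*, while the ROR receptors activate it. In skeletal muscle the same loop drives daily rhythms in genes of metabolism, so that over a day *Arntl* is near its highest when *Nr1d1*, *Dbp* and the period genes are low.

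Matches to the sequences these factors read are shown for the clock genes whose promoter window holds them. RefSeq windows on GRCm38.p6, from 250 bases before to 50 bases after a transcription start, were found for 8 of the 10 genes, and for *Per2* and *Bhlhe40* no sequence is shown. Both strands were searched for the E-box CACGTG, the E-box variant CACGTT, the D-box TTATGTAA or TTACGTAA that DBP and its relatives bind, and the ROR element TAGGTCA or TGGGTCA that ROR and REV-ERB receptors share. Capitals mark the match, in the direction of the gene, and lower case the 11 bases on each side.
Per1 E-box: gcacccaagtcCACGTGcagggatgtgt
Cry1 E-box: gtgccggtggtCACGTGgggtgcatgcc
Cry1 E-box variant: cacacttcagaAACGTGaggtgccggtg
Nr1d1 E-box variant: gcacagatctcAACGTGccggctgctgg
Per3 distal D-box: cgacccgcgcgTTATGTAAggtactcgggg
Per3 proximal D-box: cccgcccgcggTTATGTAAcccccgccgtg
Arntl ROR element: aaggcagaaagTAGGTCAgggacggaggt

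The *Per1* sequence is chr11:69098772-69098799 on the plus strand, 166 bases before a RefSeq start, in an intron of the longer GENCODE M21 gene model. The *Cry1* E-box lies at chr10:85185098-85185125 and its variant at chr10:85185117-85185144, both on the minus strand and upstream of the gene, 60 and 79 bases before the start. The *Nr1d1* variant lies at chr11:98775389-98775416 on the minus strand, 28 bases before the start and upstream of the gene model. The D-boxes of *Per3* lie at chr4:151044852-151044881 and chr4:151044805-151044834 on the minus strand, 205 and 158 bases before the start. The *Arntl* ROR element is at chr7:113207530-113207558 on the plus strand, 31 bases after a RefSeq start, in the untranslated first part of the transcript. Of all 32851 RefSeq windows, 7.15% held the E-box, 4.68% the variant, 1.06% a D-box and 6.45% a ROR element. The clock genes had 12 of these windows, of which 2 held the E-box, 2 the variant, 1 a D-box and 1 a ROR element. These matches describe letters and are not measured binding sites, and no match was found in the windows of *Clock*, *Dbp* or *Nr1d2*.

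Each WT muscle had between 13862559 and 14921057 recovered reads, and each mdx5cv muscle between 13175524 and 14502624. The libraries carried the signal of fast muscle, with *Myh4*, the fast IIb myosin heavy chain, at normalized counts from 321431 to 516258 in WT and from 299501 to 478937 in mdx5cv. *Dmd*, the mutated gene, averaged 6954 ± 857 in the WT muscles and 3964 ± 388 in the mdx5cv muscles (SD, n = 4), a difference of −0.81 on the log2 scale (adjusted p = 0.000177, limma). A count over the whole gene does not test the mutation itself. The genotypes were tested against each other in limma after taking log2(normalized count + 1), all fold changes are on that scale, and a gene was called at an adjusted p under 0.05. Intervals of fold changes are 95% confidence intervals.

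Of the 10 clock genes, 2 were lower in mdx5cv muscles than in WT, *Arntl* and *Clock*, and 0 were higher. Over all genes tested 20.1% were called lower and 20.9% higher, so the share of lower clock genes was that of the background. When a log2 fold change past 1 or −1 was also required, 0 clock genes were called, against 10.3% of all genes higher and 3.27% lower. Values of the WT and mdx5cv muscles did not overlap for *Arntl* and *Clock*, 2 of 10 genes, and did not overlap for 40.1% of all genes. The median log2 fold change of the clock genes was −0.09, and that of all genes tested was 0.00.

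**Figure D1:**
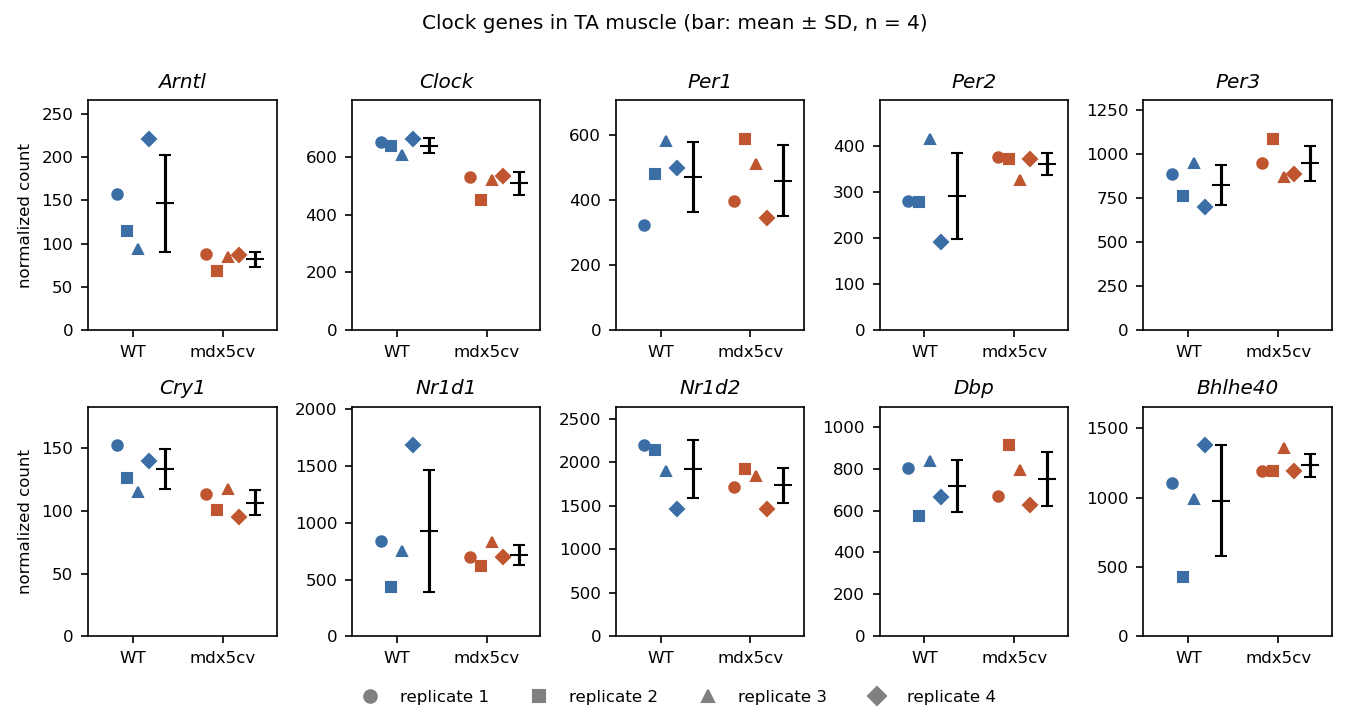
Normalized counts (vertical axes from 0) of the 10 clock genes in 4 WT and 4 mdx5cv TA muscles, with 1 symbol per replicate number and a bar for the mean ± SD (n = 4). The 4 mdx5cv muscles lie under every WT muscle for Arntl and Clock, and the WT values of Nr1d1 run from 431 to 1686.

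The activators showed the only called differences among the clock genes. *Arntl* (ENSMUSG00000055116, chr7:113207465-113314126), which encodes the activator BMAL1, had normalized counts of 157, 114, 94.0 and 221 in WT replicates 1 to 4 and of 88.0, 68.9, 84.6 and 86.3 in mdx5cv replicates 1 to 4. Every mdx5cv muscle was under the lowest WT muscle, WT replicate 3, and WT replicate 4 was the highest. *Arntl* was 1.70-fold lower in mdx5cv, a log2 fold change of −0.76 (interval −1.24 to −0.28, adjusted p = 0.0153, limma). These values rest on 73 to 209 reads per muscle, the smallest read counts of the 10 genes together with *Cry1*.

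*Clock* (ENSMUSG00000029238, chr5:76209868-76304792), the partner of BMAL1, had normalized counts of 651, 637, 606 and 663 in WT and of 530, 449, 521 and 533 in mdx5cv. The WT muscles lay close together and all of them were above the mdx5cv muscles, of which replicate 2 was the lowest. The log2 fold change was −0.33 (interval −0.54 to −0.12, adjusted p = 0.0150, limma). Without mdx5cv replicate 2 the log2 fold change of *Clock* was −0.28 with an adjusted p of 0.0537 in limma, so that call rested on this muscle.

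None of the 4 period and cryptochrome genes, which encode the repressors of BMAL1 and CLOCK, was called. *Per1* (chr11:69095217-69109960) had 323, 482, 583 and 500 normalized counts in WT and 398, 590, 511 and 344 in mdx5cv. Its groups covered nearly the same range, and the log2 fold change was −0.03 (interval −0.45 to 0.38, adjusted p = 0.905, limma). *Per2* (chr1:91415982-91459324) had 280, 279, 416 and 191 in WT and 376, 371, 326 and 372 in mdx5cv. WT replicate 3 was above and the other WT muscles under all mdx5cv muscles, and the log2 fold change was 0.36 (interval −0.03 to 0.76, adjusted p = 0.132, limma). Without WT replicate 3 the log2 fold change of *Per2* was 0.55, with an adjusted p of 0.0151 in limma, and without WT replicate 4 it was 0.18 with an adjusted p of 0.369, so its size and call rested on which WT muscles were kept.

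*Per3* (chr4:151003652-151044665), the most abundant of the period genes in reads, had 885, 764, 951 and 697 normalized counts in WT and 951, 1088, 869 and 887 in mdx5cv. Only mdx5cv replicate 2 was above all WT muscles, and the log2 fold change was 0.21 (interval −0.05 to 0.46, adjusted p = 0.185, limma). *Cry1* (chr10:85131700-85185064), a cryptochrome, had 152, 126, 115 and 140 in WT and 113, 101, 117 and 95.1 in mdx5cv. Its groups overlapped at WT replicate 3 and mdx5cv replicate 3. The log2 fold change of *Cry1* was −0.32 with an interval that left out 0 (−0.61 to −0.02), but its adjusted p was 0.0796 in limma.

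The REV-ERB genes, whose proteins repress *Arntl*, were not called either. *Nr1d1* (REV-ERB alpha, chr11:98767932-98775333) had 842, 431, 754 and 1686 normalized counts in WT and 699, 618, 831 and 704 in mdx5cv. WT replicate 4 was the highest and WT replicate 2 the lowest of all 8 muscles, with every mdx5cv muscle between them. The log2 fold change of −0.22 had the widest interval of the 10 genes, from −0.85 to 0.41 (adjusted p = 0.581, limma), and it was 0.13 without WT replicate 4. *Nr1d1* shares 263 exon bases with *Thra* on the opposite strand, which averaged 737 normalized counts in WT muscles and 636 in mdx5cv muscles, and whether the authors counted by strand is not stated.

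*Nr1d2* (REV-ERB beta, chr14:18204054-18239127) had 2198, 2143, 1903 and 1467 normalized counts in WT and 1714, 1926, 1843 and 1460 in mdx5cv. Replicate 4 was the lowest of both genotypes, and the groups overlapped. Its log2 fold change was −0.14 (interval −0.44 to 0.15, adjusted p = 0.435, limma), and it ran from −0.27 without WT replicate 4 to −0.06 without mdx5cv replicate 4. In WT replicate 4, then, *Nr1d1* was at its highest and *Nr1d2* at its lowest of the WT muscles.

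*Dbp* (chr7:45705088-45710203) encodes a D-box activator and is a direct output of the clock. It had 803, 571, 835 and 663 normalized counts in WT and 667, 912, 792 and 627 in mdx5cv. The groups overlapped over most of their range, with a log2 fold change of 0.06 (interval −0.25 to 0.38, adjusted p = 0.764, limma). *Dbp* shares 539 exon bases with *Sphk2* on the opposite strand, which had a mean normalized count of 152 in each genotype.

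*Bhlhe40* (chr6:108660629-108666925) encodes DEC1, a repressor that competes for E-boxes and also responds to other stimuli. Its normalized counts were 1106, 427, 993 and 1378 in WT and 1193, 1193, 1355 and 1187 in mdx5cv. WT replicate 2 was far under the other 7 muscles, while the mdx5cv muscles lay close together inside the WT range. The log2 fold change of *Bhlhe40* was 0.46 (interval −0.12 to 1.03, adjusted p = 0.189, limma) and 0.10 without WT replicate 2.

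The scaling of the libraries bears on the direction of these small differences. The authors' size factors ranged from 0.873 to 0.944 in WT and from 1.06 to 1.25 in mdx5cv. Scaling every muscle to the same total in their place shifted the typical (median) gene upwards by 0.36 on the log2 scale, to 39.8% of genes called higher and 6.00% lower. Under equal totals 4 clock genes were higher and 0 lower, beside 0 higher and 2 lower with the size factors. The higher ones were *Per3* (0.57, adjusted p = 0.00176), *Per2* (0.72, adjusted p = 0.00687), *Dbp* (0.42, adjusted p = 0.0210) and *Bhlhe40* (0.81, adjusted p = 0.0262), all on the log2 scale in limma. *Arntl* stayed lower at −0.41 but was no longer called (adjusted p = 0.197, limma), and *Clock* was at 0.02 (adjusted p = 0.893, limma). Relative to the shift of all genes, *Arntl* was at −0.76 and *Clock* at −0.33 under equal totals. Rescaling moves every gene by nearly the same amount, so this return to the values with the size factors is built in and is no separate support.

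**Figure D2:**
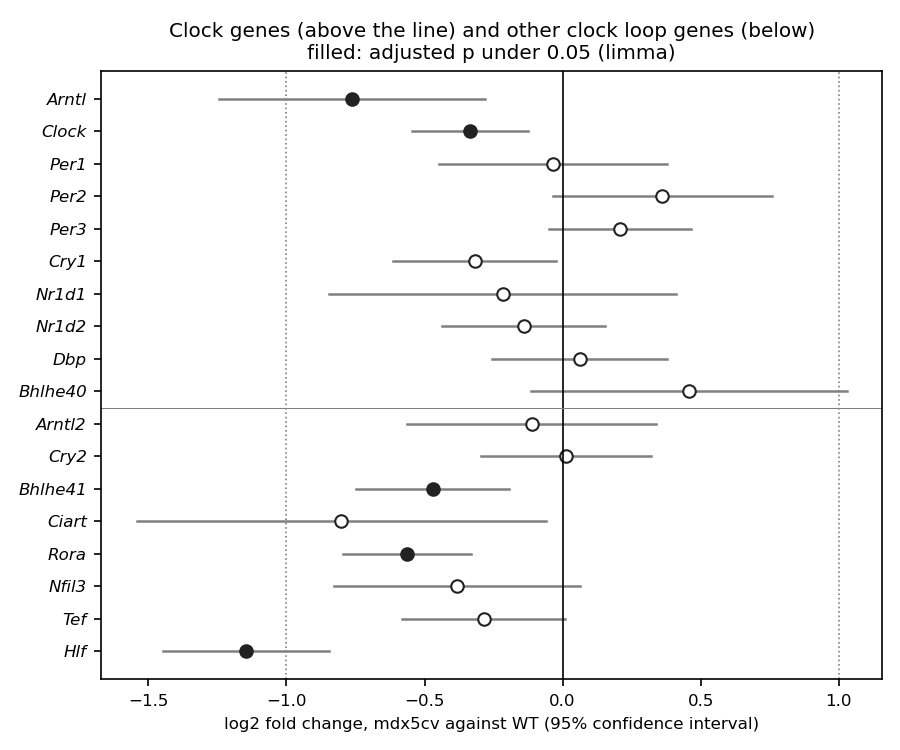
Log2 fold change of mdx5cv against WT (horizontal axis) with its 95% confidence interval in limma, for the 10 clock genes above the line and 8 other genes of the clock loop below it; filled points have an adjusted p under 0.05 and dotted lines mark log2 fold changes of 1 and −1. The filled points are Arntl, Clock, Bhlhe41, Rora and Hlf, all to the left of 0.

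A list of 10 other genes of the same loop was examined beside them, of which 8 could be tested. *Npas2*, a paralog of *Clock*, and *Rorb* had at most 19 and 9 reads in a muscle and were not tested. Of the 8, 3 were lower in mdx5cv and 0 higher, beside 20.1% lower and 20.9% higher over all genes, and the median over the 8 was −0.43 on the log2 scale. They were *Rora*, which encodes a receptor that activates *Arntl*, *Hlf*, a D-box activator related to *Dbp*, and *Bhlhe41*, which encodes the repressor DEC2. *Hlf* also fell by more than 1 on the log2 scale.

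*Hlf* had 229, 218, 229 and 202 normalized counts in WT and 88.0, 124, 84.6 and 102 in mdx5cv, so every mdx5cv muscle was under every WT muscle. Its log2 fold change was −1.15 (interval −1.45 to −0.85, adjusted p = 4.14e-05, limma). *Hlf* stayed called under equal totals (−0.79, adjusted p = 0.000957, limma), but there its log2 fold change was not past −1.

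*Rora* had 2015, 1897, 1823 and 1778 normalized counts in WT and 1396, 1378, 1275 and 1060 in mdx5cv, also without overlap. The log2 fold change of *Rora* was −0.56 (interval −0.79 to −0.33, adjusted p = 0.00115, limma). *Bhlhe41* had 1015, 814, 1002 and 886 in WT and 826, 675, 649 and 547 in mdx5cv, where mdx5cv replicate 1 was above WT replicate 2. Its log2 fold change was −0.47 (interval −0.75 to −0.19, adjusted p = 0.0106, limma). Under equal totals neither *Rora* (−0.21, adjusted p = 0.107, limma) nor *Bhlhe41* (−0.11, adjusted p = 0.499, limma) was called.

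The 5 other tested genes of the loop were not called. *Ciart*, which encodes the repressor CHRONO, had a log2 fold change of −0.80 (adjusted p = 0.0783, limma), with 51.6, 57.0, 92.9 and 53.0 normalized counts in WT and 49.1, 47.2, 44.1 and 14.4 in mdx5cv. The 2 genotypes did not overlap for *Ciart*, and mdx5cv replicate 4 was far under the others; without it the log2 fold change was −0.39 (adjusted p = 0.184, limma). *Nfil3*, a D-box repressor, was at −0.38 (adjusted p = 0.156, limma) and *Tef*, a D-box activator, at −0.29 (adjusted p = 0.113, limma). *Arntl2*, a paralog of *Arntl*, was at −0.11 (adjusted p = 0.700, limma), and *Cry2*, the other cryptochrome, at 0.01 (adjusted p = 0.952, limma).

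The spread of clock genes among muscles of a genotype does not depend on the phase at which the other genotype was collected. A comparison of that spread between genotypes can depend on the collection times within each, which are not given. The spread among the 4 WT muscles, as the SD of log2(normalized count + 1), was 0.81 for *Nr1d1*, 0.74 for *Bhlhe40*, 0.54 for *Arntl*, 0.46 for *Per2* and 0.36 for *Per1*. It was 0.27 for *Nr1d2*, 0.25 for *Dbp*, 0.20 for *Per3*, 0.18 for *Cry1* and 0.06 for *Clock*. Among WT muscles *Clock* was the least variable of the 10, and *Nr1d1* the most. This order did not hold in mdx5cv muscles, where *Bhlhe40* (0.09) and *Per2* (0.10) were under *Clock* (0.12) and *Per1* (0.35) was highest. Single muscles carried several of the SDs in WT. The SD of *Bhlhe40* was 0.24 without WT replicate 2, and that of *Per1* was 0.15 without WT replicate 1. Without WT replicate 4 it was 0.52 for *Nr1d1* and 0.11 for *Nr1d2*, and without WT replicate 3 it was 0.03 for *Clock*.

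In mdx5cv muscles the same SD was 0.35 for *Per1* and 0.25 for *Dbp*, and from 0.09 to 0.18 for the other 8. Without mdx5cv replicate 2 it was 0.03 for *Arntl*, 0.02 for *Clock* and 0.07 for *Per3*, and without replicate 3 it was 0.01 for *Per2*, 0.004 for *Bhlhe40* and 0.11 for *Nr1d1*. Without mdx5cv replicate 4 it was 0.09 for *Nr1d2*. The highest WT muscle exceeded the lowest 3.91-fold for *Nr1d1* and 3.23-fold for *Bhlhe40*, beside 1.35-fold and 1.14-fold among mdx5cv muscles. *Arntl* spanned 2.36-fold in WT and 1.28-fold in mdx5cv, and *Per2* 2.18-fold and 1.15-fold. *Per1* spanned 1.80-fold and 1.71-fold, so its spread was alike in the genotypes.

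The SD was larger in WT than in mdx5cv for 9 of the 10 clock genes, all but *Clock*, and for 54.9% of all genes tested. It was over 2 times larger in WT for 4 of 10, *Arntl*, *Per2*, *Nr1d1* and *Bhlhe40*, and for 19.3% of all genes. The median SD of the clock genes was 0.31 in WT and 0.15 in mdx5cv, while that of all genes was 0.23 and 0.21. With any 1 WT muscle left out, the SD was larger in WT for 8 of 10 clock genes (from 43.2% to 55.2% of all genes). It was over 2 times larger for the same 4 (from 13.6% to 22.1% of all genes). With any 1 mdx5cv muscle left out, the SD was larger in WT for 7 to 10 clock genes (from 53.5% to 68.2% of all genes). It was over 2 times larger for 4 to 6, which included these 4 (from 21.9% to 34.2% of all genes). The difference in spread was not tested, since 4 values give an SD little precision. It cannot be told apart from a difference in how far collection times were spread within each genotype.

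**Figure D3:**
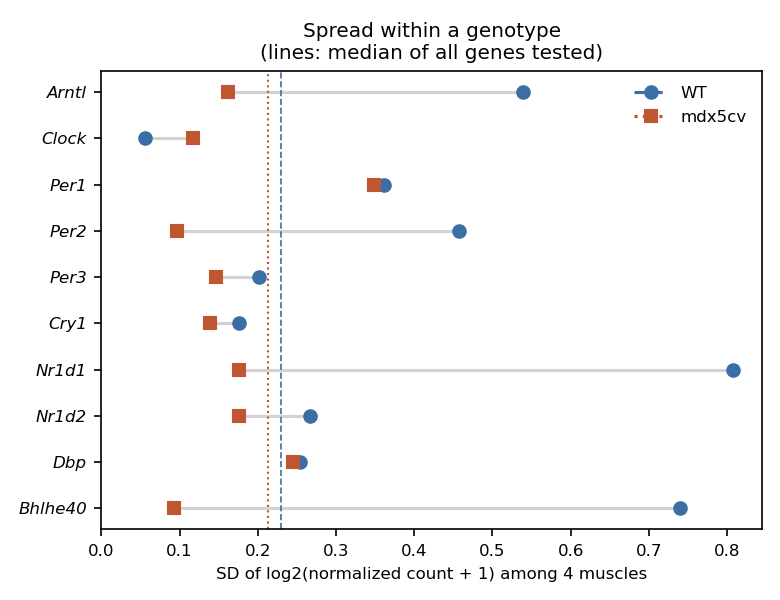
SD of log2(normalized count + 1) among the 4 WT muscles (circles) and the 4 mdx5cv muscles (squares) for each clock gene, with vertical lines at the median SD of all genes tested in WT (dashed, 0.23) and mdx5cv (dotted, 0.21). The circle lies to the right of the square for every gene but Clock, farthest for Bhlhe40 and Nr1d1.

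Counting of reads adds its own spread to these SDs. Counting reads alone would give an SD of 0.12 in WT and 0.15 in mdx5cv for *Arntl* on the log2 scale, from its mean number of reads. The measured SD of *Arntl* was 0.54 and 0.16, so in mdx5cv it was hardly above the counting error. *Cry1* was close to counting error in both genotypes, with 0.18 measured and 0.13 from counting in WT and 0.14 and 0.13 in mdx5cv. For *Nr1d1* counting gave 0.05 in each genotype, against 0.81 and 0.18 measured. *Clock* in WT was measured at 0.06, the same as its counting error of 0.06. Some SDs with a muscle left out were under counting error. Without mdx5cv replicate 2, *Arntl* (0.03) and *Clock* (0.02) were under their counting values of 0.15 and 0.06 in mdx5cv. Without mdx5cv replicate 3, *Per2* (0.01) and *Bhlhe40* (0.004) were under 0.07 and 0.04, so muscles this close together are not a measure of low spread.

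Pooled over both genotypes, the SD ranked *Nr1d1* at percentile 93.4 of all genes tested, *Bhlhe40* at 90.6, *Arntl* at 80.1, *Per1* at 74.3 and *Per2* at 70.7. *Dbp* was at percentile 53.3 and *Nr1d2* at 46.1. *Per3* was at 29.4, *Cry1* at 23.0 and *Clock* at 3.90. Thus 6 of the 10 genes were above the median of all genes tested, with a median percentile of 62.0.

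The WT muscles that stood out differed from gene to gene. WT replicate 4 was farthest from the WT mean for *Arntl*, *Per3*, *Nr1d1* and *Nr1d2*, which is 4 of 10 clock genes beside 25.9% of all genes. WT replicate 3 was farthest for *Clock*, *Per2* and *Cry1*, 3 of 10 beside 16.2% of all genes. In WT replicate 4 *Arntl* was 0.67 above the WT mean on the log2 scale and *Nr1d1* 1.03 above, while *Per2* was at −0.55, *Nr1d2* at −0.38 and *Per3* at −0.23. WT replicate 3 showed the reverse for *Arntl* (−0.56), *Per2* (0.57) and *Per3* (0.22), with *Per1* at 0.34. WT replicate 2 was farthest for *Bhlhe40* (−1.07) and *Dbp* (−0.31), 2 of 10 beside 38.4% of all genes, with *Nr1d1* at −0.93. WT replicate 1 was farthest for *Per1* (−0.51), 1 of 10 beside 19.5% of all genes.

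Levels in the mdx5cv muscles were more even for most genes. All 4 were under the WT mean for *Arntl*, with −0.65 the nearest to it, for *Clock*, from −0.51 to −0.26, and for *Cry1*, from −0.48 to −0.18. All 4 were above it for *Per2*, from 0.22 to 0.42, for *Per3*, from 0.09 to 0.41, and for *Bhlhe40*, from 0.41 to 0.60, although none of these 3 genes was called. *Per1* and *Dbp* were high in mdx5cv replicate 2 (0.35 and 0.36) and low in replicate 4 (−0.42 and −0.18).

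**Figure D4:**
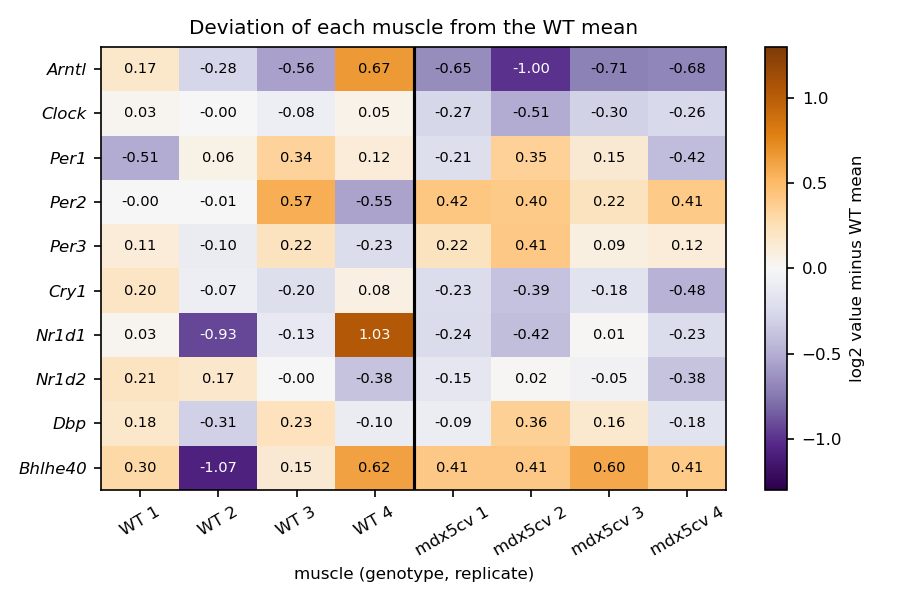
Difference of each muscle from the WT mean on the log2(normalized count + 1) scale (colour and printed value), with clock genes as rows and the 8 muscles as columns, WT to the left of the line. WT 4 is at 0.67 for Arntl and 1.03 for Nr1d1, WT 2 is at −1.07 for Bhlhe40, and all mdx5cv muscles are negative for Arntl, Clock and Cry1.

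Ratios of normalized counts within a muscle, taken with no pseudocount, do not depend on the scaling between libraries. The log2 ratio of *Dbp* to *Arntl* was 2.36, 2.32, 3.15 and 1.58 in WT replicates 1 to 4 and 2.92, 3.73, 3.23 and 2.86 in mdx5cv. WT replicate 3 lay inside the mdx5cv range and the other WT muscles under it, and the mean was 2.35 ± 0.64 over WT muscles and 3.18 ± 0.40 over mdx5cv muscles (SD, n = 4). For *Nr1d1* to *Arntl* the log2 ratio was 2.42, 1.92, 3.004 and 2.93 in WT and 2.99, 3.17, 3.30 and 3.03 in mdx5cv. The means were 2.57 ± 0.50 and 3.12 ± 0.14, and WT replicate 3 was within the mdx5cv range.

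The log2 ratio of *Per2* to *Arntl* was 0.83, 1.29, 2.15 and −0.22 in WT and 2.10, 2.43, 1.95 and 2.11 in mdx5cv. *Per2* was thus under *Arntl* in normalized counts only in WT replicate 4. The means were 1.01 ± 0.98 and 2.14 ± 0.20 (SD, n = 4), and WT replicate 3 again lay inside the mdx5cv range. The ratios share *Arntl*, which was itself called, so they are a description and were not tested.

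**Figure D5:**
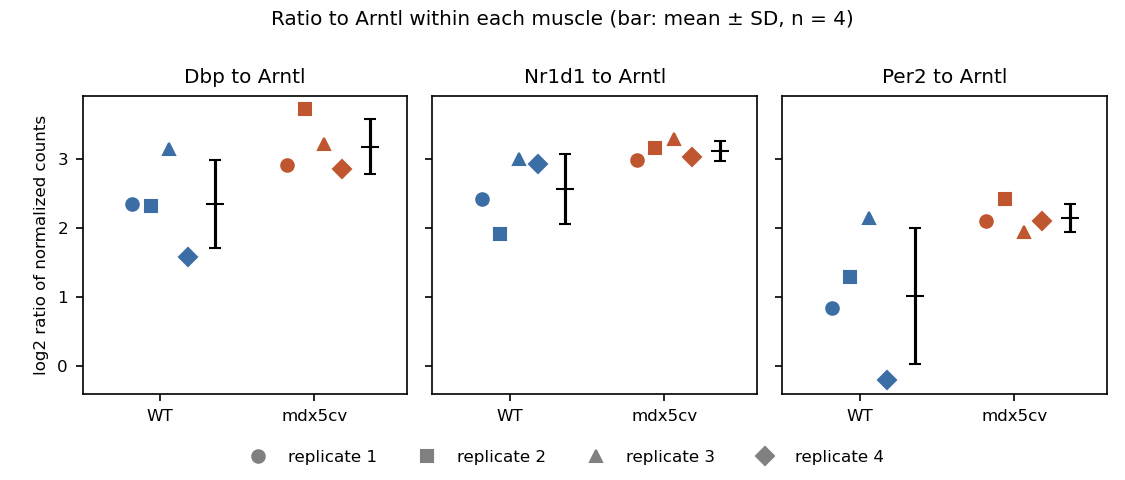
Log2 ratio of the normalized counts of Dbp, Nr1d1 and Per2 to Arntl within each muscle (vertical axis), with 1 symbol per replicate number and a bar for the mean ± SD (n = 4). Per2 to Arntl runs from −0.22 to 2.15 in WT and from 1.95 to 2.43 in mdx5cv.

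Per kilobase of exon, the WT order of mean normalized counts was *Nr1d2* (356), *Nr1d1* (302), *Dbp* (240), *Bhlhe40* (207), *Per3* (85.8), *Per1* (83.8), *Per2* (49.7), *Clock* (46.6), *Cry1* (39.9) and *Arntl* (19.5). Among WT muscles only the last neighbours in that order, *Cry1* and *Arntl*, did not overlap. In mdx5cv the order was *Nr1d2* (321), *Bhlhe40* (262), *Dbp* (250), *Nr1d1* (232), *Per3* (98.7), *Per1* (81.8), *Per2* (61.7), *Clock* (37.0), *Cry1* (31.9) and *Arntl* (10.9). There the 4 most abundant genes did not overlap *Per3*, *Per2* did not overlap *Clock*, and *Cry1* did not overlap *Arntl*. *Arntl* was thus the least abundant clock gene per length in both genotypes.

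Among all genes tested, the patterns most like that of *Arntl* over the 8 muscles were those of *Gm43509*, *Flrt1* and *Relt*. Their root mean square differences from *Arntl*, after centring each gene, were 0.18, 0.18 and 0.21 on the log2 scale. The nearest clock gene was *Cry1*, at 0.35, with 267 genes closer. For *Dbp* the nearest were *Zfp143* (0.08), *Tbc1d32* (0.08) and *Letm1* (0.09), and the nearest clock gene was *Per3*, at 0.16, with 148 genes closer.

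Most genes that act on clock proteins were not called, while over all genes tested 20.9% were called higher and 20.1% lower. Of 8 tested among 9 kinases, ubiquitin ligases and related factors, 1 was higher in mdx5cv and 0 lower. The higher gene was *Csnk1d*, which encodes a kinase of the period proteins, with normalized counts from 422 to 462 in WT muscles, from 507 to 549 in mdx5cv muscles and no overlap (log2 fold change 0.25, adjusted p = 0.0476, limma). Of 12 genes described as clock outputs, 1 was higher and 3 were lower, beside the same 20.9% and 20.1% of all genes. The higher one was *Myod1*, the myogenic factor (1.44, adjusted p = 0.000106, limma). The 3 lower ones were *Lpin1*, a phosphatidate phosphatase (−0.81, adjusted p = 0.000222, limma), *Nampt* of NAD synthesis (−0.60, adjusted p = 0.00555, limma) and *Alas1* of heme synthesis (−0.46, adjusted p = 0.0129, limma).

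Cell type markers moved with genotype as well, and over all genes tested 20.9% were higher and 20.1% lower. All 8 macrophage markers were higher in mdx5cv, with summed normalized counts from 430 to 654 in WT and from 3961 to 9705 in mdx5cv. All 6 markers of regenerating fibers were higher, with sums from 118 to 143 and from 2175 to 8502, with *Mymx* at 0 in all 4 WT muscles and *Mymk* and *Chrng* at 1.06 or less there. Of 6 fibroblast markers 5 were higher (sums from 5917 to 8822 and from 20608 to 38031). Of 5 endothelial markers 4 were lower (from 2492 to 3067 and from 1588 to 2036).

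Of 8 fast fiber markers 3 were lower in mdx5cv (sums from 1051475 to 1276481 in WT and from 743873 to 1150004 in mdx5cv), and of 6 slow fiber markers 3 were higher and 1 lower (from 462 to 525 and from 461 to 1195). The slow fiber sums add genes that moved in opposite directions, so they do not measure slow fiber content. Of 5 adipocyte markers 4 were lower (from 909 to 1480 and from 423 to 658), and of 5 erythrocyte markers 3 were lower (from 694 to 1240 and from 342 to 733). The highest adipocyte sum was that of WT replicate 4, where *Arntl* and *Nr1d1* were highest. Within mdx5cv, replicate 4 had the highest macrophage and regenerating sums and the lowest fast fiber sum. Its *Arntl* count of 86.3 was inside the range of the other mdx5cv muscles, as were its *Per2*, *Per3* and *Nr1d1* counts. *Clock* was highest in that muscle, while *Per1*, *Cry1*, *Nr1d2*, *Dbp* and *Bhlhe40* were lowest there. Among the other loop genes called, *Rora* and *Bhlhe41* were lowest in that muscle and *Hlf* was not. The part of these cell types in the differences of *Arntl* and *Clock* was not tested.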

How the data were processed

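The 4 WT and 4 mdx5cv TA muscles were profiled with stranded total RNA libraries, and groups and replicate numbers were taken from the labels. The authors deposited a signal per gene, the normalized count, which is reads divided by a size factor per muscle. The submitters' processing notes name FastQC, Trim Galore 0.6.4, STAR 2.6.0c, SAMtools 1.9, featureCounts, MultiQC 1.6, DESeq2 1.26.0, R 3.6.2 and mm10, with no order. The annotation and the strand setting of the counting are not given in the sources used here. Whole reads were recovered for 100% of values within 0.01 of a whole number, and no column was left unused. Replicates of a genotype differed by a chi-square per degree of freedom of 9.55 to 43.2, so none was counted as a copy.

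Genes averaging 10 or more normalized counts entered a limma fit (version 3.58.1, R 4.3.3, lmFit, eBayes with a variance trend, two-sided, Benjamini-Hochberg over 13677 genes) on log2(normalized count + 1), with no covariate. On the recovered reads, edgeR 4.0.16 and DESeq2 1.42.0 were alternatives. Others were pseudocounts of 0.1 and 10, other filters, TMM factors, equal totals, median centring, a fit lacking the variance trend, a replicate block and each muscle left out. Python 3.11.15 with pandas 2.3.3, numpy 2.4.6 and matplotlib 3.10.9 served the other steps. Coordinates are from GENCODE M21 on GRCm38, which holds 55141 of the gene IDs.

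The clock genes, the lists and the rule for named genes were chosen with earlier results of these data known. The rule names the clock genes, the other loop genes, *Dmd*, up to 4 called genes with the largest fold change from each further list, and the 3 patterns nearest to *Arntl* and to *Dbp*. A gene of the loop list is not reported here and is in none of its counts. *Mymx*, *Mymk*, *Chrng*, *Myh4*, *Thra* and *Sphk2* were named beside them, after their values were seen. Tested on simulated data over 13540 genes, with 194 tested genes shifted by 2 on the log2 scale, limma recovered 100%, edgeR 100% and DESeq2 99%. In the simulation, recovery and calls required an adjusted p under 0.05 and also a log2 fold change reaching 1 or −1. Under that stricter rule, unchanged genes called were 4 in limma, 4 in edgeR and 2 in DESeq2. These counts do not give the false calls of the rule used for the clock genes, an adjusted p under 0.05 alone. The simulated shift of 2 is larger than the change of any clock gene. The recovery therefore does not measure how well differences of their size are found.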

Additional observations from a re-analysis of the deposited data

Results flagged for a closer look

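Among 42 sets of 4 muscles (the 18 tested genes of the clock and its loop, and the 3 ratios to *Arntl*, in each genotype), 7 had a muscle whose gap to its nearest neighbour took more of the range than Dixon's 95% critical value allows, and chance gives about 1 in 20, or 2.1. None of the 7 was a ratio. Values here are log2(normalized count + 1). Low in mdx5cv replicate 2 were both activators, *Arntl* at 6.13 (others from 6.42 to 6.48) and *Clock* at 8.81 (others from 9.03 to 9.06). In mdx5cv replicate 3, *Per2* was lowest at 8.35 (others from 8.54 to 8.56) and *Bhlhe40* highest at 10.41 (others from 10.21 to 10.22). *Ciart* was highest in WT replicate 3 at 6.55 (others from 5.72 to 5.86) and lowest in mdx5cv replicate 4 at 3.94 (others from 5.50 to 5.65), where *Tef* was also lowest at 11.10 (others from 11.52 to 11.60). The 4 gaps of the clock genes lie in mdx5cv groups whose other 3 muscles differed by 0.06 or less on this scale. In each of these 4 groups the SD of the other 3 muscles was under the SD that counting reads alone would give.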

How the results depend on the processing

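The calls of *Arntl* and *Clock* as lower, and the absence of higher clock genes, held under both pseudocounts, both filters, TMM factors, no variance trend, edgeR and DESeq2. With the replicate block, 2 clock genes were lower and 0 higher, and 4 other loop genes were called in place of 3, with *Ciart* added (adjusted p = 0.0369, limma). Muscles sharing a number correlated by 0.0501, 0.0309, 0.0722 and 0.146 in their deviations, and 2 of the 4 numbers matched themselves best. Whether muscles sharing a number were handled together cannot be told from these values. Equal totals gave 4 higher and 0 lower clock genes and 1 other loop gene called, and put *Clock* at 0.024, *Per1* at 0.32, *Cry1* at 0.037, *Nr1d1* at 0.14, *Nr1d2* at 0.22, *Arntl2* at 0.24 and *Tef* at 0.073, with a shift of 0.36 over all genes. Median centring put *Dbp* at −0.032 and *Cry2* at −0.082 and called *Cry1* lower (−0.41, adjusted p = 0.0305, limma). Leaving out each muscle gave 0 to 1 higher clock genes (1, *Per2*, without WT replicate 3) and 1 to 2 lower (1, *Arntl*, without mdx5cv replicate 2). Over these fits *Per1* ran from −0.20 to 0.10, *Dbp* from −0.042 to 0.143, *Nr1d1* from −0.53 to 0.13, *Arntl2* from −0.203 to 0.036 and *Cry2* from −0.12 to 0.11, none of them called, while *Per2* ran from 0.18 to 0.55, *Bhlhe40* from 0.10 to 0.66, *Nr1d2* from −0.27 to −0.06 and *Ciart* from −0.96 to −0.39. Without WT replicate 2, *Nfil3* was called lower (adjusted p = 0.0127, limma). The adjusted p ranged over all alternatives from 0.00335 to 0.197 for *Arntl*, 0.00363 to 0.893 for *Clock* and 4.11e-11 to 0.000957 for *Hlf*. With no filter, 3 in place of 6 clock genes were above the median spread. The SDs of the clock genes are the same in that setting, and only the set of genes they are ranked among differs. The time of collection was not given, and *Arntl* and *Cry1*, at 73 to 209 and 104 to 133 reads, are the genes whose spread depth limits most.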

Other observations

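Genes that answer to hormones and stimuli, some of which also follow the time of day, were counted beside the clock genes. Of 8 glucocorticoid-responsive genes, 4 were lower in mdx5cv and 1 higher, beside 20.1% lower and 20.9% higher over all genes. The lower ones with the largest change were *Zbtb16* (log2 fold change −0.68, adjusted p = 0.0425, limma), *Sgk1*, a kinase (−0.62, adjusted p = 0.00298, limma), and *Tsc22d3*, which encodes GILZ (−0.50, adjusted p = 0.0188, limma). *Cdkn1a*, which encodes the cell cycle inhibitor p21 and also responds to p53, was the higher one (3.54, adjusted p = 2.44e-06, limma).

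Of 6 immediate early genes tested among 7, 4 were higher and 0 lower, beside 20.9% and 20.1% of all genes. The higher ones were the transcription factors *Junb* (2.08, adjusted p = 1.83e-06, limma), *Egr1* (1.83, adjusted p = 1.21e-05, limma), *Fos* (1.65, adjusted p = 2.82e-05, limma) and *Atf3* (1.40, adjusted p = 0.00494, limma). The mdx5cv muscles were above every WT muscle for each of the 4, and the genotypes did not overlap for 40.1% of all genes. *Bhlhe40*, the clock gene that also responds to stimuli, was not called.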
